A study of Bos taurus with 12 samples.

Results

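Lysosomal hydrolases, the proteins that carry out or assist digestion in the lysosome, and the proton pump that acidifies it were examined in growth plate chondrocytes, the cells that form the cartilage in which long bones lengthen. Genes were taken by name: 35 listed symbols and every symbol that starts with ATP6V, which named 52 genes in all. Of these, 49 genes had a probe set of that symbol, with 68 probe sets among them, out of 9155 named genes and 24016 probe sets that are not controls. They comprised 9 proteases, 6 proteins of lipid handling, 8 glycosidases, 2 sulphatases, 5 membrane or associated proteins and 19 proton pump genes. GALNS, IDS and IDUA were not analysed here.

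Total RNA was hybridised to 12 one-colour arrays, 6 of hypertrophic zone (HZ) cells and 6 of reserve zone (RZ) cells, in pairs numbered 1 to 6. All cells came from the distal metacarpus of male dairy cattle under 10 months old, and the labels name no treatment. After 4 hours in Collagenase P the cells were separated by density, and HZ is the lightest fraction, RZ the heaviest. The labels call the pairs independent without saying whether each is a single animal. Behind each limma p-value is thus the spread among these pairs, whatever they are, drawn toward that common to all probe sets. With 12 arrays, precision is limited.

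Lysosomal enzymes are made in the endoplasmic reticulum, most are tagged with mannose 6-phosphate in the Golgi and carried to the lysosome, and they work at acid pH. The acid is supplied by the vacuolar proton pump, whose V1 sector splits ATP in the cytosol and whose V0 sector passes protons through the membrane. In cartilage, lysosomes digest proteoglycan taken up by the chondrocyte, and inherited loss of sulphatases or glycosidases of this pathway disturbs bone growth.

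Values are recovered signals, on a scale common to all arrays whose unit is assumed. Differences are HZ minus RZ on the scale of log2(signal + 16). The standard error (SE) beside them is limma's, which draws a gene's spread among the 6 pairs toward that common to all probe sets. Each gene is represented by its brightest probe set, and a gene passed when its p, adjusted over all 24016 probe sets by the Benjamini-Hochberg method, was under 0.05 in limma with the pair as a block. On this scale the difference of a dim gene is understated.

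None of 9 measured chondrocyte markers was below the divisor of the dimmest probe sets (7.34 signal units) on most arrays. None of 6 osteoclast or 4 osteoblast markers was either, so this low floor does not tell cell types apart. The only chondrocyte marker to pass was MATN1, lower in HZ (11.1%, against 3.56% of all named genes called lower). Of 10 measured hypertrophic markers 6 passed, all higher in HZ, MMP13 and IHH among them (60%, against 4.17% of all named genes). COL10A1, a defining gene of the hypertrophic zone, differed by 0.11 ± 0.16. Of 6 measured reserve zone markers 4 passed, all lower in HZ, including SFRP5 and PTHLH (66.7%, against 3.56% of all named genes). These lists were chosen with earlier results of these data known, so they are not an independent check of the labels. Arrays of pairs 1 and 2 stood apart from those of pairs 3 to 6 by the size of the steps in the deposited values, so differences within both sets of pairs are given for the members that passed. The labels name no batch.

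In HZ the transcripts of LIPA and ATP6V1H rose and those of NPC1 fell, and the other 46 member genes did not pass. LIPA encodes lysosomal acid lipase, which frees cholesterol and fatty acids from lipid brought into the lysosome. ATP6V1H encodes subunit H of the V1 sector, and NPC1 the membrane protein that carries cholesterol out of the lysosome. The 2 higher genes make up 4.08% of the 49 members, against 4.17% of all named genes that were called higher. The 1 lower gene makes up 2.04%, against 3.56% of all named genes called lower, so both shares lie near the background. The median difference of the members was 0.009, and that of all named genes was -0.011. By probe set, 3 of 68 passed, where 6.22% of all probe sets did.

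**Figure D1:**
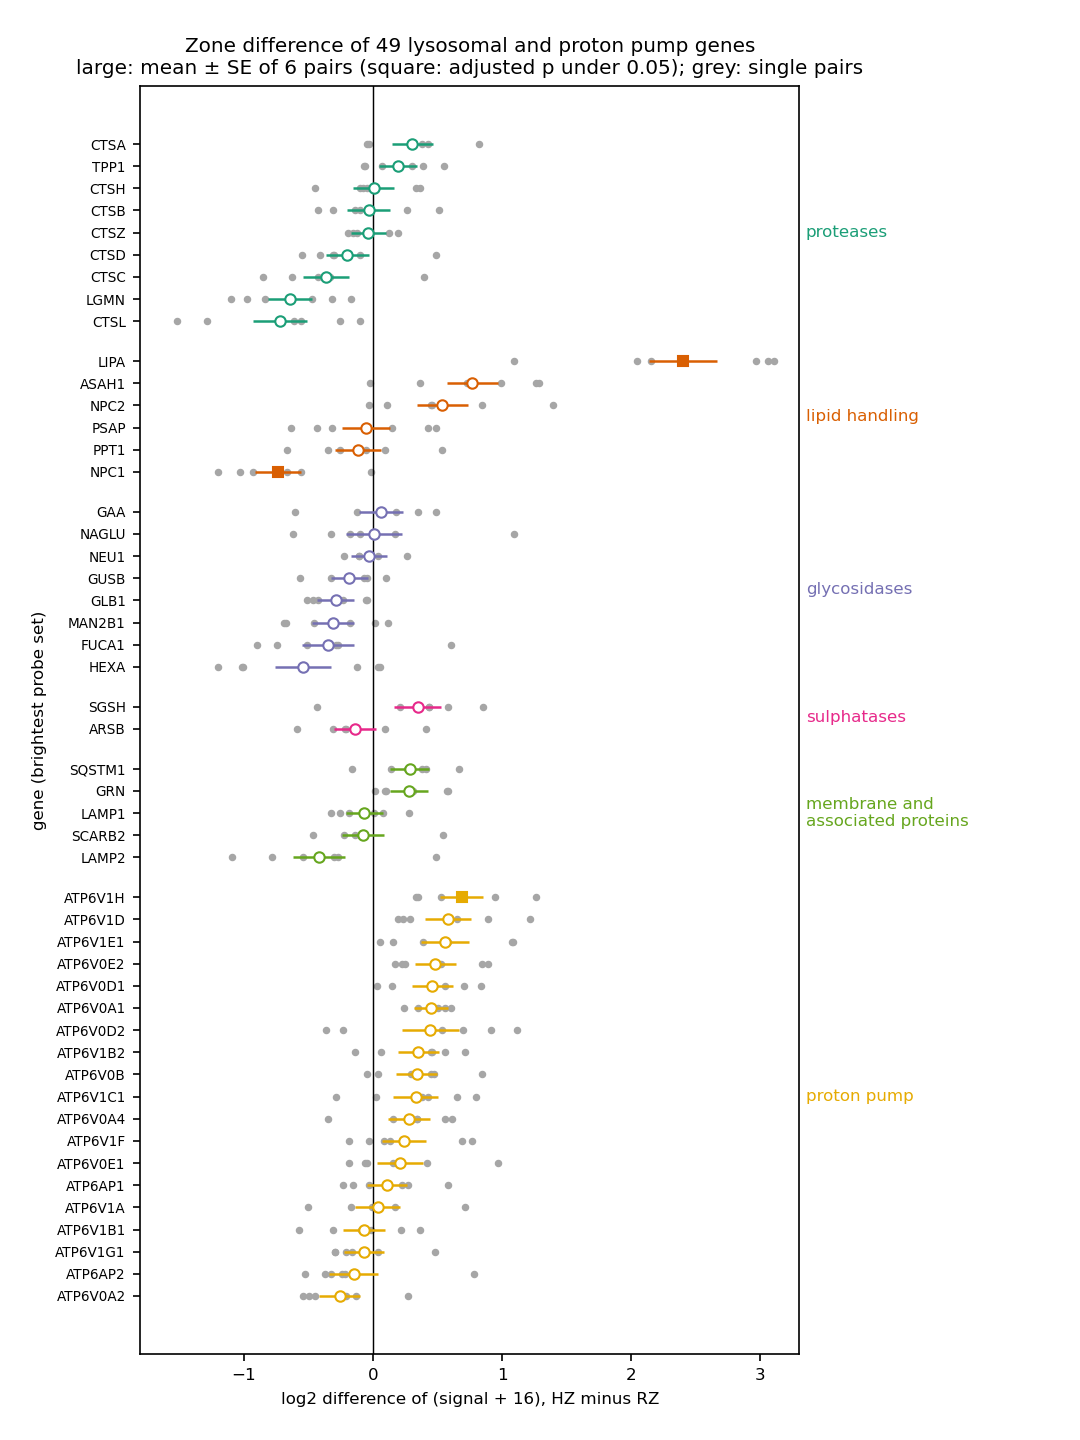
Difference between HZ and RZ (log2 of signal + 16, horizontal axis) of the 49 genes, by class. The large symbol is the mean of 6 pairs with the SE from limma, a filled square marks an adjusted p under 0.05, and grey dots are single pairs. LIPA lies apart at 2.40, while the next largest difference in either direction is 0.77.

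The difference was above 0 in all 6 pairs in 8 members (16.3%), 6 of them pump genes, where 8.6% of all named genes were so. It was below 0 in all 6 pairs in 4 members (8.16%), where 8.27% of all named genes were so. The zones did not overlap in 1 member (2.04%), LIPA, where 3.86% of all named genes did not overlap. An unadjusted p under 0.05 was reached by 13 of 49 members (26.5%), where 25.1% of all named genes reached it. For 42 of the 46 members that did not pass, the 95% interval of the difference lay within 1 of 0 on the scale of log2(signal + 16).

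Among the lipid-handling proteins, LIPA signal on the HZ arrays ranged from 423 to 2158 with a median of 1212, and on the RZ arrays from 82.7 to 237 with a median of 214. The lowest HZ array thus lay above the highest RZ array. The HZ arrays themselves fell apart, with HZ-1, HZ-3 and HZ-5 at 1879, 1785 and 2158 and HZ-2, HZ-4 and HZ-6 at 506, 638 and 423. The difference was 2.40 ± 0.26 (95% interval 1.81 to 2.99), a 5.28-fold rise with an adjusted p of 0.0020. In pairs 1 to 6 it was 2.96, 1.09, 3.06, 2.04, 3.10 and 2.15, which is a rise in every pair, from 2.13-fold to 8.59-fold. LIPA ranked 6 among all named genes by the size of its rise. Pairs 1 and 2 alone gave 2.03 and pairs 3 to 6 gave 2.59, and LIPA passed whichever pair was left out, with adjusted p from 0.0012 to 0.0117. It did not pass in pairs 1 and 2 alone (adjusted p = 0.318) or in pairs 1, 2, 5 and 6 (2.33, adjusted p = 0.0513), a subset chosen after seeing the data. In either of these fits 0 of 49 members passed, and a fit of only pairs 1 and 2 has little power.

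NPC1 and NPC2 pass cholesterol on from the lipase, NPC2 as the soluble carrier and NPC1 as the exporter in the membrane. NPC1 signal ranged from 174 to 472 in HZ, median 300, and from 357 to 658 in RZ, median 517. The zones overlapped through HZ-3, at 472, while the other HZ arrays were all below the lowest RZ array. The difference was -0.73 ± 0.18, with an adjusted p of 0.0414, and pairs 1 to 6 gave -1.20, -0.56, -0.02, -0.93, -0.67 and -1.03. Pairs 1 and 2 alone gave -0.88 and pairs 3 to 6 gave -0.66. With any pair other than pair 3 left out it no longer passed, and without pair 3 it did (-0.88, adjusted p = 0.0226). It did not pass without the pair block (adjusted p = 0.0963), with 1 added in place of 16 (0.0937) or on the log2 of the deposited ratio (0.0995).

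NPC2 signal was 2278 to 5463 in HZ, median 3034, and 1656 to 2689 in RZ, median 2282. HZ-3 was its highest array, and HZ-4 lay inside the RZ range. NPC2 differed by 0.54 ± 0.20 and was higher in 5 of 6 pairs, but did not pass (adjusted p = 0.147). PSAP, the precursor of the saposins that help enzymes reach their lipids, had signals of 1919 to 4041 in HZ, median 2884, and 2431 to 3308 in RZ, median 2992. The RZ arrays of PSAP lay within the HZ range, and the difference was -0.05 ± 0.19 (95% interval -0.47 to 0.37).

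ASAH1, the acid ceramidase, came close to the threshold at 0.77 ± 0.20 with an adjusted p of 0.0512. It was higher in HZ in 5 of 6 pairs, and the exception, pair 4, was at -0.02. PPT1, which removes fatty acids from cysteines of proteins, differed by -0.12 ± 0.18. The median over the 6 genes of lipid handling was 0.24.

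**Figure D2:**
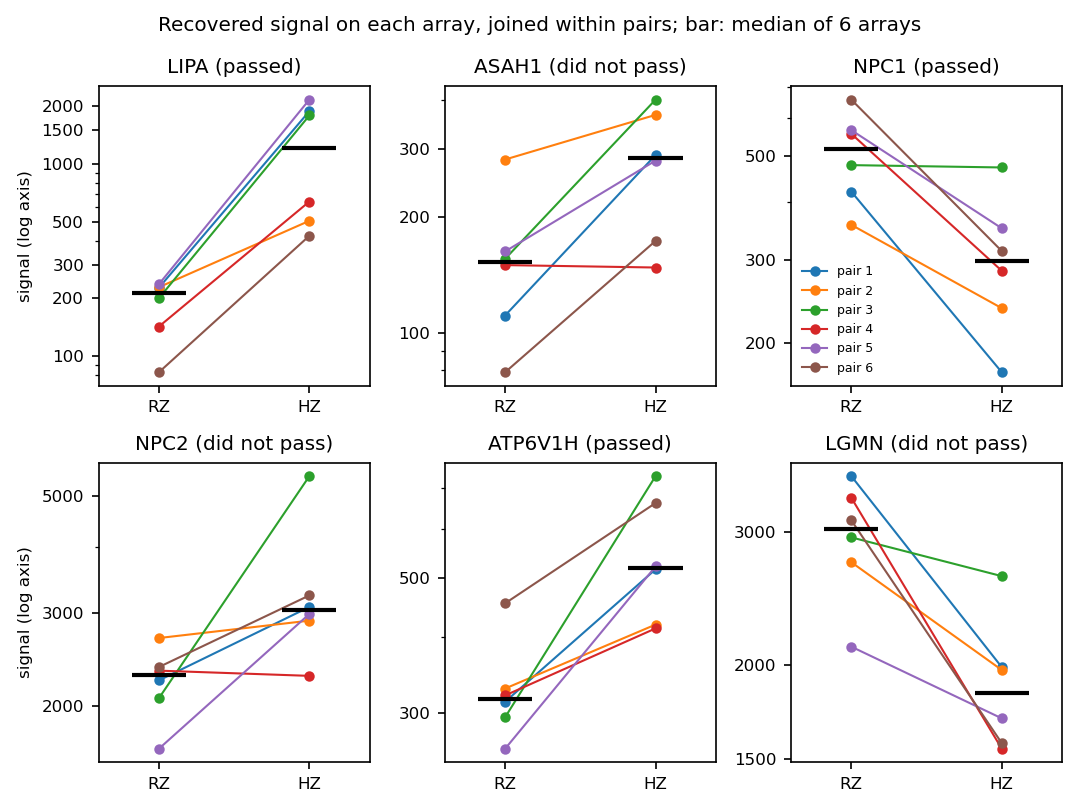
Recovered signal (vertical log axis) in RZ and HZ of 6 genes, 1 line per pair, with a bar at the median of the 6 arrays of a zone. LIPA signals do not overlap between the zones, those of the other 5 genes do, and the NPC1 line of pair 3 is nearly level.

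None of the 9 proteases passed in limma. Among them 2, LGMN and CTSL, had an unadjusted p under 0.05, where 25.1% of all named genes had one. LGMN and CTSB had the highest mean signals of the class and are given in full. LGMN, the asparaginyl endopeptidase that matures several cathepsins, had signals of 1549 to 2624 in HZ, median 1835, and 2116 to 3562 in RZ, median 3033. It was lower in HZ in every pair, by amounts from -1.10 in pair 4 to -0.17 in pair 3, and the zones overlapped. Its difference of -0.64 ± 0.17 had an adjusted p of 0.0545, just short of passing. CTSB, the cysteine protease cathepsin B, had signals of 905 to 1425 in HZ, median 1149, and 996 to 1397 in RZ, median 1114. Its zones covered nearly the same range, with a difference of -0.03 ± 0.16.

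CTSL, a further cysteine cathepsin, was dim, at 6.96 to 92.1 in HZ and 17.8 to 99.7 in RZ. It was lower in HZ in all 6 pairs, by -0.72 ± 0.21, and did not pass (adjusted p = 0.0741). CTSC, which activates serine proteases, differed by -0.36 ± 0.18 and the aspartic protease CTSD by -0.20 ± 0.17. CTSZ was at -0.04 ± 0.14 and CTSH at 0.0049 ± 0.16. CTSA, which also protects GLB1 and NEU1 in a complex, was at 0.31 ± 0.16, and the tripeptidyl peptidase TPP1 at 0.20 ± 0.15. Of the 9 proteases 3 had differences above 0, and their median was -0.04.

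The 8 glycosidases remove sugars from the ends of glycans and glycolipids, and none of them passed. FUCA1, which removes fucose, had signals of 1107 to 2568 in HZ, median 1430, and 1680 to 2134 in RZ, median 1900.5. All HZ arrays except HZ-3 lay below the lowest RZ array, and the difference was -0.35 ± 0.20, with pair 3 at 0.61 and the others between -0.90 and -0.27. GLB1, the acid beta-galactosidase, ranged from 367 to 805 in HZ, median 550, and from 499 to 830 in RZ, median 700.3. It was lower in HZ in all 6 pairs, by -0.51 to -0.04, and its difference of -0.29 ± 0.14 did not pass (adjusted p = 0.271).

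HEXA, the alpha chain of beta-hexosaminidase, differed by -0.54 ± 0.21, with pairs 1, 4 and 6 at -1.02, -1.01 and -1.20 and the other three between -0.12 and 0.05. MAN2B1, the acid alpha-mannosidase, was at -0.31 ± 0.16 and GUSB, the beta-glucuronidase, at -0.18 ± 0.15. The sialidase NEU1 (-0.03 ± 0.14), the acid alpha-glucosidase GAA (0.06 ± 0.17) and NAGLU, which acts on heparan sulphate (0.01 ± 0.22), lay near 0. The class median was -0.24, with 2 of 8 genes above 0. Only 1 glycosidase, HEXA, had an unadjusted p under 0.05, where 25.1% of all named genes had one.

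The sulphatases ARSB and SGSH remove sulphate from dermatan and heparan sulphate. ARSB signal was 70.4 to 205 in HZ, median 160.2, and 114 to 214 in RZ, median 166, with a difference of -0.14 ± 0.16. SGSH was 78.2 to 108 in HZ, median 101, and 47.0 to 111 in RZ, median 70.9. The RZ range of SGSH enclosed that of HZ, although SGSH was higher in HZ in 5 of 6 pairs and its difference was 0.35 ± 0.18. Neither of them passed in limma, with adjusted p of 0.694 for ARSB and 0.298 for SGSH, nor had an unadjusted p under 0.05.

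Among the membrane and associated proteins, SQSTM1, an adaptor that brings ubiquitin-tagged cargo to autophagosomes, had signals of 2558 to 4765 in HZ, median 3938, and 1964 to 4174 in RZ, median 3365. LAMP1, a main glycoprotein of the lysosomal membrane, had 1586 to 2996 in HZ, median 2062, and 1661 to 2699 in RZ, median 2430.0. The zones overlapped widely in both. SQSTM1 differed by 0.28 ± 0.15 and was higher in 5 of 6 pairs, and LAMP1 differed by -0.07 ± 0.14. GRN, the progranulin precursor, was higher in all 6 pairs, but by no more than 0.58 in any (0.28 ± 0.15). LAMP2 was at -0.42 ± 0.20 and SCARB2, the receptor that delivers beta-glucocerebrosidase, at -0.08 ± 0.16, so none of the 5 passed in limma, and 0 of them had an unadjusted p under 0.05.

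Of the 19 proton pump genes 1 passed, ATP6V1H (5.26%, against 4.17% of all named genes called higher). Differences were above 0 in 15 of the 19, with a median of 0.33. Of the other 30 members 11 were above 0, with a median of -0.06, and 48.9% of all named genes were above 0. Whether the pump genes differ from the other members was not tested. ATP6V1H signal was 413 to 732 in HZ, median 518, and 262 to 454 in RZ, median 317. The zones overlapped through RZ-6 at 454, which exceeded HZ-2 and HZ-4. In pairs 1 to 6 the difference was 0.69, 0.33, 1.26, 0.35, 0.95 and 0.53. Its mean of 0.69 ± 0.17, a 1.61-fold rise, had an adjusted p of 0.0414. Pairs 1 and 2 alone gave 0.51 and pairs 3 to 6 gave 0.77, and ATP6V1H no longer passed with any pair left out (adjusted p 0.0567 to 0.122), without the pair block (0.0563), with 1 added in place of 16 (0.0909) or on the log2 of the deposited ratio (0.0969).

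ATP6V1E1 and ATP6V1G1, which had the highest mean signals of the pump genes, encode subunits of the stalks that hold the pump's stationary part. ATP6V1E1 ranged from 6981 to 12143 in HZ, median 9269, and from 4578 to 7529 in RZ, median 6492. It was higher in all 6 pairs, from 0.06 in pair 6 to 1.08 in pairs 3 and 5, and did not pass (0.56 ± 0.18, adjusted p = 0.105). ATP6V1G1 ranged from 6016 to 8311 in HZ, median 6982, and from 5856 to 8663 in RZ, median 7708. Its HZ range lay inside its RZ range, with a difference of -0.07 ± 0.15. E and G subunits pair within a stalk, and the gap between the differences of ATP6V1E1 and ATP6V1G1 was not tested.

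The V1 sector had 9 measured genes, of which 7 were above 0, with a median of 0.33. ATP6V1D, the shaft that turns inside V1, was higher in all 6 pairs (0.58 ± 0.18, adjusted p = 0.0866). The ATP-binding subunits ATP6V1A and ATP6V1B2 were at 0.04 ± 0.17 and 0.35 ± 0.16, and ATP6V1C1 and ATP6V1F at 0.33 ± 0.17 and 0.24 ± 0.17. ATP6V1B1, an isoform best known from acid-secreting kidney cells, was dim on all arrays, at most 25.8, and differed by -0.07 ± 0.16.

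The V0 sector had 8 measured genes, 7 of them above 0, with a median of 0.39. None of them passed in limma, and 3 had an unadjusted p under 0.05, where 25.1% of all named genes had one. ATP6V0A1, an isoform of the subunit that lines the proton path, had the least spread between pairs of all members: it lay between 0.24 and 0.61 in every pair (0.45 ± 0.13, adjusted p = 0.0814). ATP6V0D1 (0.46 ± 0.16) and ATP6V0E2 (0.48 ± 0.16) were also higher in all 6 pairs. ATP6V0B (0.34 ± 0.16), ATP6V0A4 (0.28 ± 0.16) and ATP6V0E1 (0.21 ± 0.18) were higher in some pairs and not in others. ATP6V0A2 was the exception, at -0.26 ± 0.16 and lower in 5 of 6 pairs, but its dimmer probe set was at -0.005 and lower in 3 of 6. The accessory proteins ATP6AP1 and ATP6AP2 were at 0.11 ± 0.16 and -0.15 ± 0.19.

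ATP6V0D2 is the isoform of subunit d known from osteoclasts, the cells that resorb bone. Its signal was 22.6 to 149.8 in HZ, median 66.6, and 29.2 to 72.1 in RZ, median 35.5. It was higher in HZ in pairs 1 to 4 and lower in pairs 5 and 6, with a difference of 0.44 ± 0.22 and an adjusted p of 0.271.

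**Figure D3:**
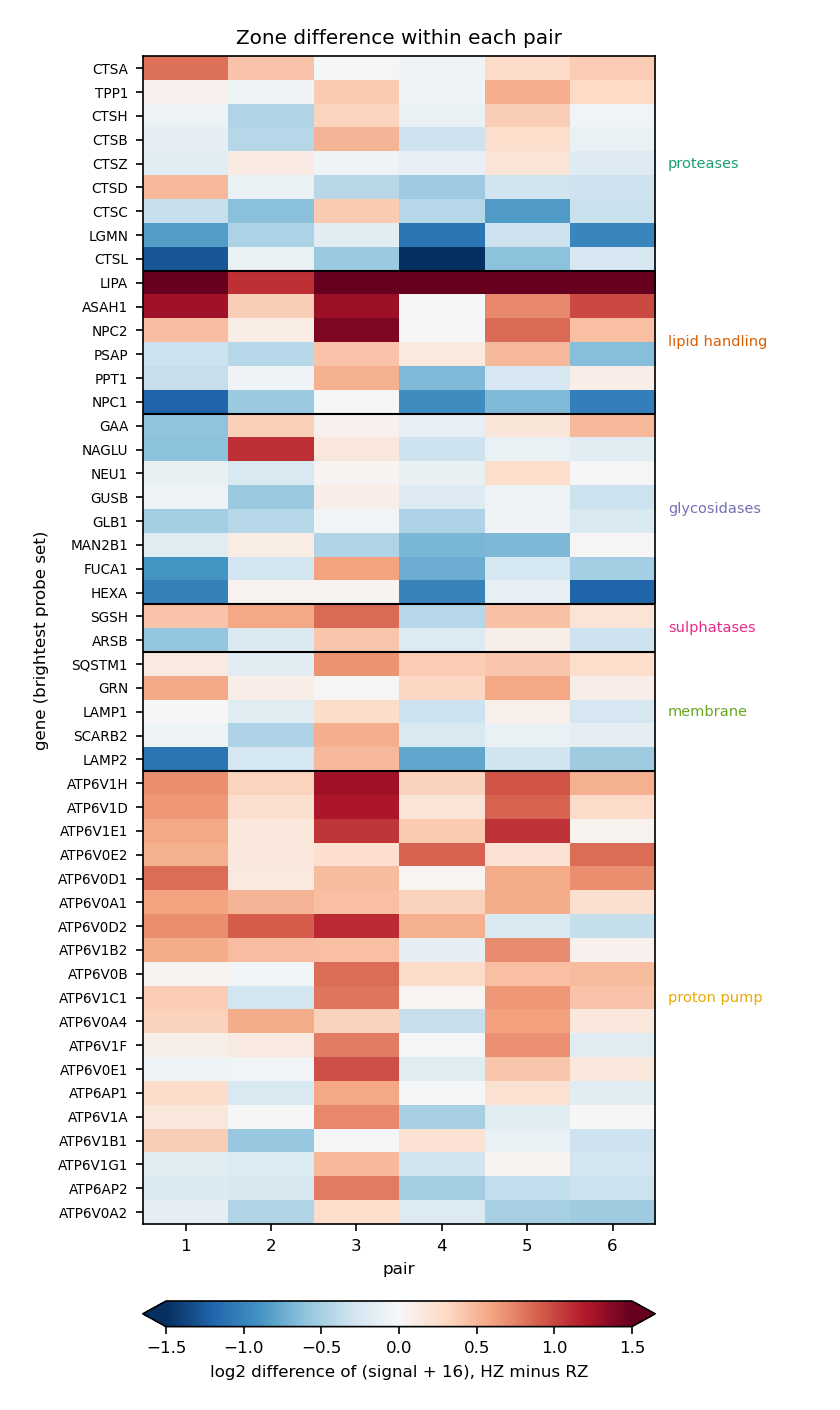
Difference between HZ and RZ within each pair (colour, log2 of signal + 16, with values beyond 1.5 shown at the end of the scale) for the 49 genes, ordered by class and size. Pump genes are mostly red in pairs 1, 3 and 5, and pair 3 is red in most rows, with a median of 0.45 over the members.

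The size of the members' differences varied from pair to pair. Their median difference was 0.01, -0.05, 0.45, -0.14, 0.22 and -0.05 in pairs 1 to 6, where all named genes had medians of 0.02, -0.13, 0.18, -0.09, 0.04 and -0.07. Pair 3 gave the highest of the 6 differences in 28 of 49 members (57.1%), and in 36.6% of all named genes. In pair 3, 40 members were above 0, among them 18 of 19 pump genes. Without pair 3 the median was -0.03 for all members and 0.24 for the pump, with 14 of 19 pump genes above 0. For the pump alone, pairs 1 to 6 had medians of 0.37, 0.13, 0.72, 0.02, 0.45 and 0.07, so every pair was above 0, pairs 4 and 6 by little.

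Control probe sets at both ends of a transcript showed how RNA and labelling differed between arrays. The log2 ratio of 3′ to 5′ signal of GAPDH was highest on HZ-3 (1.46) and HZ-4 (1.21), and between -0.20 and 0.50 on the other 10 arrays. The HZ arrays averaged 0.52 ± 0.65 (SD, n = 6) and the RZ arrays 0.10 ± 0.28 (SD, n = 6; exact two-sided sign-flip test, p = 0.125, the smallest possible being 0.03125). For actin the HZ arrays averaged 3.03 ± 0.69 and the RZ arrays 2.34 ± 0.45 (SD, n = 6, exact p = 0.0625), and for EF1A -2.50 ± 0.39 and -2.26 ± 0.30 (SD, n = 6, exact p = 0.406). With pairs 3 and 4 left out, 0 of 49 members passed in limma (19 had an unadjusted p under 0.05). The shares of all named genes in that fit were not counted, so these counts have no background. Member medians in it were 0.00 over all classes and 0.25 over the pump, and that of all named genes was -0.03. The part of RNA quality in the members' differences was not tested.

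Some genes were read by several probe sets, and these did not always move alike. CTSB had 6, with mean differences from -0.07 to 0.29, none of which passed. PSAP had 4, all near 0 in the mean, but its dimmest was at -2.64 in pair 3 and at 1.61 in pair 6, where the brightest was at 0.43 and -0.63. The dimmer probe set of SQSTM1 was at -2.39 in pair 3 and -1.96 in pair 5, where the brighter was at 0.67 and 0.41. That of GLB1 was at -2.06 in pair 3, where the brighter was at -0.04. For LAMP2 the dimmer probe set was at 0.09 in the mean and higher in 5 of 6 pairs, where the brighter was at -0.42. The 4 probe sets of ATP6V1A had means from -0.04 to 0.05, and both of ATP6V1C1 were above 0, at 0.33 and 0.48. LIPA, NPC1 and ATP6V1H each had 1 probe set, so their differences have no such check.

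**Figure D4:**
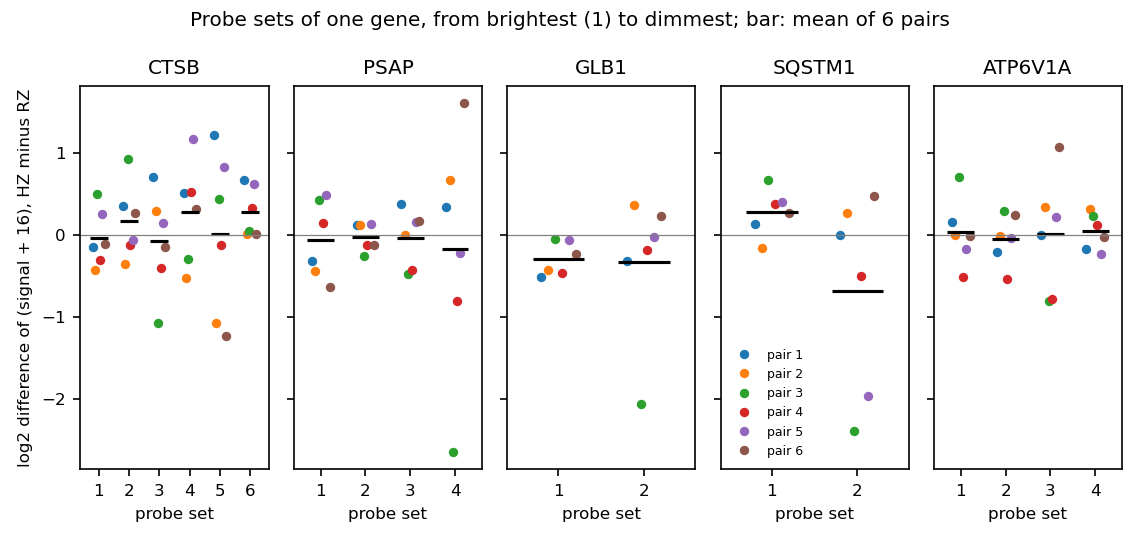
Difference between HZ and RZ (log2 of signal + 16) of each probe set of 5 genes, numbered from brightest to dimmest, with 1 dot per pair and a bar at the mean. The dimmest probe sets of PSAP, GLB1 and SQSTM1 spread most within their gene, and the dots far below 0 in PSAP, GLB1 and SQSTM1 are those of pair 3 and, in SQSTM1, also pair 5.

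How many members passed depended on how the arrays were treated. After quantile normalization 9 of 49 passed, 7 higher and 2 lower, where 8.94% of all named genes passed. NPC2, ASAH1, ATP6V0A1, ATP6V1D and ATP6V1E1 joined the higher genes, and LGMN joined NPC1. With the test limited to probe sets above the median level, 10 of 42 passed, 8 higher and 2 lower, where 19.3% of all named genes in that fit passed. Without the pair block 1 of 49 passed, LIPA, where 4.41% of all named genes passed. In pairs 3 to 6 alone 1 of 49 passed, again LIPA, where 1.89% of all named genes passed.

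Further lists of lysosomal and autophagy genes were set beside the members. Among 21 other lysosomal enzymes 3 passed, all higher in HZ (14.3%, against 4.17% of all named genes). They were CTSK (1.46 ± 0.21) and CTSS (1.36 ± 0.29), collagen- and elastin-degrading cathepsins, and the acid phosphatase ACP5 (1.21 ± 0.29). CTSK signal was 5350.4 to 8174 in HZ and 1569 to 4017 in RZ, without overlap. CTSS overlapped through RZ-2 at 1052, above all HZ arrays. Among 17 other lysosomal membrane proteins 1 passed (5.88%, against 3.56% of all named genes called lower), the iron transporter SLC11A2, which fell by 0.56.

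None of 15 genes of mannose 6-phosphate tagging and delivery passed in limma. An unadjusted p under 0.05 was reached by 1 of them, and by 25.1% of all named genes. The largest differences in this list were CLN8 (0.59 ± 0.20) and VPS35 (0.26 ± 0.22) above 0, and NAGPA (-0.41 ± 0.39) and AP3M1 (-0.25 ± 0.21) below it. The receptors M6PR (0.11 ± 0.15) and IGF2R (-0.17 ± 0.15) were near 0.

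The MiT/TFE factors are transcription factors known to drive lysosomal genes when the kinase complex mTORC1 is less active. TFEB (0.41 ± 0.29), TFE3 (0.26 ± 0.14) and MITF (-0.23 ± 0.24) did not pass, and TFEC was not analysed here. Of 17 measured genes in this list 1 passed (5.88%, against 4.17% of all named genes called higher), LAMTOR1, which anchors mTORC1 control at the lysosome. Its signal was 394 to 853 in HZ and 209 to 385 in RZ, without overlap, a difference of 0.76 ± 0.14.

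In the autophagy list 3 of 40 genes (7.5%, against 4.17% of all named genes) passed, all higher in HZ: the mitophagy receptor BNIP3L (0.69 ± 0.15), the LC3 homologue MAP1LC3C (0.79 ± 0.19) and VAMP8 (0.89 ± 0.17), a SNARE that fuses autophagosomes with lysosomes. Each of these 3 had zones that did not overlap. GABARAP, GABARAPL2, OPTN and ULK2 did not overlap either but did not pass, although a second probe set of the cargo receptor OPTN did, with a fall of 0.88 (adjusted p = 0.0119). In all, zones did not overlap, in either direction, in 7 of the 40 genes (17.5%, against 3.86% of all named genes). The median over the 40 was 0.06, with 22 above 0 and 18 below.

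Markers of other cell types that are rich in lysosomes also differed between the zones. Of 14 measured macrophage markers 5 were higher in HZ (AIF1, C1QA, C1QB, C1QC and CSF1R), 1 was lower (PTPRC), and 8 did not pass. These shares are 35.7% higher and 7.14% lower, against 4.17% and 3.56% of all named genes. The summed signal of the 14 was 1591 to 3890 in HZ and 1285 to 3663 in RZ, and was higher in HZ in 4 of 6 pairs. ITGAM was below the divisor of the dimmest probe sets on most arrays. AIF1 was higher in each pair, by 2.10, 1.83, 1.54, 2.69, 2.25 and 1.55 in pairs 1 to 6. Over the macrophage list differences ran from -1.72 to 1.99, with 9 above 0 and 5 below. Of 12 listed osteoclast markers 6 were measured. Of these, 3 were higher in HZ (ACP5, CTSK and ITGB3), which is 50% against 4.17% of all named genes, and none was lower. ACP5 and CTSK also stand in the list of other lysosomal enzymes above, so the shares of these lists are not independent. The summed signal of the 6 osteoclast markers was 13065 to 20706 in HZ and 6207 to 9342 in RZ, without overlap, and ATP6V0D2 is one of their number. In these mixed RNAs fewer cells of a type and less RNA per cell cannot be told apart. The part of macrophages or osteoclasts in the differences of LIPA, ATP6V1H and NPC1 was not tested.

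Of 4 osteoblast markers DMP1 was higher in HZ (25%, against 4.17% of all named genes). COL1A1 and COL1A2 were at -1.05 ± 0.34 and -1.12 ± 0.29 without passing. Of 6 endothelial markers PECAM1 was lower in HZ (16.7%, against 3.56% of all named genes), and VWF was below that divisor on most arrays. None of 5 blood markers passed in limma or had an unadjusted p under 0.05, with ALAS2 and HBM below the divisor on most arrays.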

How the data were processed

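The deposited table holds 1 linear ratio per probe set and array: the authors divided each signal by the median of that probe set over the arrays, or by a fixed value for dim probe sets, as read from the values. How the authors scanned, summarised and normalized the arrays is not given in the sources used here. Ratios lie on whole multiples of a step (tolerance 0.01 step, widened by 3e-07 per step counted up to 0.08; the largest distance was 0.0676), which gave back the signal of 24127 of 24128 probe sets (the other is a control), with 1 step taken on average as 0.1 signal units, an assumption that sets the weight of the added constant. Array medians of the signal were 96.6 to 96.7.

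Zones were compared on log2(signal + 16) with limma 3.58.1 in R 4.3.3 (lmFit, eBayes, pair as a fixed block, 5 residual degrees of freedom). Same-numbered arrays deviated together (correlations 0.124 to 0.447 over 6 pairs). The planned design had assumed intensities or recoverable signals. On simulated data of 24016 probe sets with 200 changed, this fit called 52% of changes of 1 and 93% of changes of 2 (log2), with 7 false calls. Symbols came from the platform annotation. The members, the gene lists and the rule for named genes (each member that passed and the 2 brightest others of each class in full) were chosen with earlier results of these data known.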

Additional observations from a re-analysis of the deposited data

Results flagged for a closer look

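In 3 of 98 groups of 6 arrays, 1 array lay apart from the other 5 by Dixon's test at 5%, where chance would give about 4.9. PSAP was lowest on RZ-5 at 2431, with the nearest array at 2973. NAGLU was lowest on HZ-1 at 33.82, with the nearest at 69.95. ATP6V0D2 was highest on RZ-2 at 72.07, with the nearest at 38.26. None of these 3 genes passed between the zones.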

How the results depend on the processing

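Of the 49 members, 2 were higher and 1 lower. Counts (higher, lower) were 1 and 0 without the pair block (no replicate block), with a constant of 1, on the log2 of the deposited ratio and in pairs 3 to 6, 0 and 0 in pairs 1 and 2 (3 with an unadjusted p under 0.05 in limma) and, chosen after seeing the data, in pairs 1, 2, 5 and 6 (19 so), 5 and 2 with a constant of 64, 7 and 2 with quantile normalization, 8 and 2 with probe sets above the median level, and 6 and 2 with trended robust variance. Leaving out 1 pair gave 1 to 2 higher and 0 to 2 lower. Beyond the main fit, shares of all named genes were counted only with quantile normalization, probe sets above the median level, no pair block and pairs 3 to 6. The counts from the other settings have no background beside them. LIPA, ATP6V1H and NPC1 kept their sign in all 16 alternatives. Without the block ATP6V1H stayed at 0.69 (adjusted p = 0.0563) and NPC1 at -0.73 (0.0963). Limits: 6 pairs give a 95% interval of ±0.37 in the median member, and dim probe sets depend on the constant.

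Some members that did not pass changed sign. With quantile normalization CTSB was 0.027, CTSZ 0.022 and NEU1 0.015, and with a constant of 64 NAGLU was -0.001. In pairs 1 and 2 CTSD was 0.193, CTSH -0.262, GAA -0.123, SQSTM1 -0.011, ATP6V0B -0.004 and ATP6V0E1 -0.055. In pairs 3 to 6 CTSB was 0.091, PSAP 0.108, NAGLU -0.106, NEU1 0.041 and SCARB2 0.018, and in pairs 1, 2, 5 and 6 CTSH was -0.051. With 1 pair left out, CTSB ran from -0.142 to 0.045, CTSH from -0.067 to 0.096, PSAP from -0.162 to 0.063, GAA from -0.026 to 0.191, NAGLU from -0.208 to 0.135, NEU1 from -0.088 to 0.011, SCARB2 from -0.200 to 0.001, ATP6V1A from -0.100 to 0.144 and ATP6V1B1 from -0.155 to 0.033. The cause was not tested.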
